A study of Mus musculus with 5 samples.

Results

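The livers of C57BL/6J and FVB/NJ mice, 2 long-established inbred laboratory strains, were compared gene by gene on microarrays. The comparison used 2 of the 5 arrays of the series, 1 for each strain, and the values of BALB/CByJ, NZW/LacJ and RIIIS/J, also 1 array each, served as context. Every array carried liver RNA pooled from 3 male mice of 10 weeks that had received no treatment. No allele, transgene or agent was given for any group, and the arrays were made to check a previously mapped locus that affects gene expression. The Affymetrix Mouse430_2 array reads a transcript through a probe set, a group of short probes whose brightness, the intensity, is combined into 1 linear value. Since each strain had 1 array of 1 pool, no difference has a replicate check, no p-value is given, and the spread between pools of a strain is unknown.

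Hepatocytes make up most of the mass of the liver. They secrete plasma proteins such as albumin and the complement and clotting factors, break down amino acids and foreign compounds, make bile acids, and store, burn or export fat. Their tasks are divided along the blood flow, with urea synthesis near the portal vein and glutamine synthesis next to the central vein. Blood, sinusoidal endothelium, stellate cells, resident macrophages called Kupffer cells and a small number of lymphocytes fill the rest of the organ. B cells make immunoglobulin and present antigen on MHC class II, and red blood cell precursors make haemoglobin, mainly in the bone marrow and spleen of an adult mouse.

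For each of 18194 genes 1 probe set was used, the brightest on average across all 5 arrays. A gene counted as detected above an intensity of 8.48. This limit is the 95th percentile of 84 probe sets of smell, pheromone and taste receptor genes, whose main site is not the liver. Of the genes, 11583 were detected on at least 1 of the 2 arrays and were compared, and 10531 of these were detected on both. Differences are log2 values of C57BL/6J minus FVB/NJ, so that 1 stands for a 2-fold higher intensity in C57BL/6J and -1 for a 2-fold higher intensity in FVB/NJ. A gene detected on only 1 array was set against the detection limit, and its fold is a lower bound. The median difference over all compared genes was 0.02.

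At least 2-fold higher intensity in C57BL/6J was found for 319 genes, 2.75% of those compared, and in FVB/NJ for 961 genes, 8.3%. Thus 75.1% of the genes past 2-fold were higher in FVB/NJ, and 64.7% were when the arrays were first brought to the same distribution by quantile normalisation, which moved the median over all genes to 0.11. The excess lay among genes that were dim on the other 3 arrays. Where the mean of those 3 arrays was an intensity of 32 to 128, 3.57% of 2411 genes were higher in C57BL/6J and 10.9% were higher in FVB/NJ. At a mean of 2048 or more, 29 of 1123 genes were higher in C57BL/6J and 10 were higher in FVB/NJ. For the 5977 genes called liver-expressed here, whose mean on the other 3 arrays was an intensity of at least 128, the counts were 161 (2.69%) and 183 (3.06%).

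**Figure D1:**
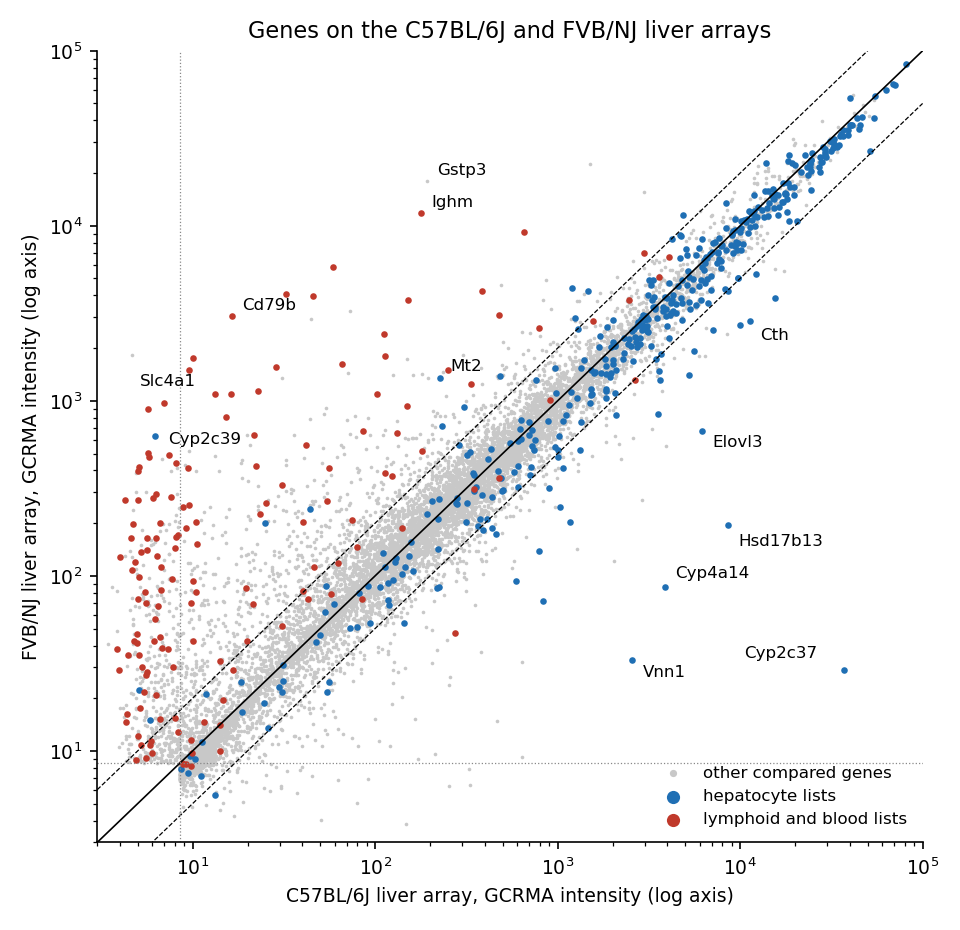
Intensity on log axes of each compared gene on the C57BL/6J array (horizontal axis) and on the FVB/NJ array (vertical axis). Hepatocyte genes and lymphoid and blood genes are in colour, with lines at equality and at 2-fold. The hepatocyte genes lie along the line of equality at high intensity, while 110 of the 149 compared lymphoid and blood genes lie beyond the 2-fold line on the FVB/NJ side.

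**Figure D2:**
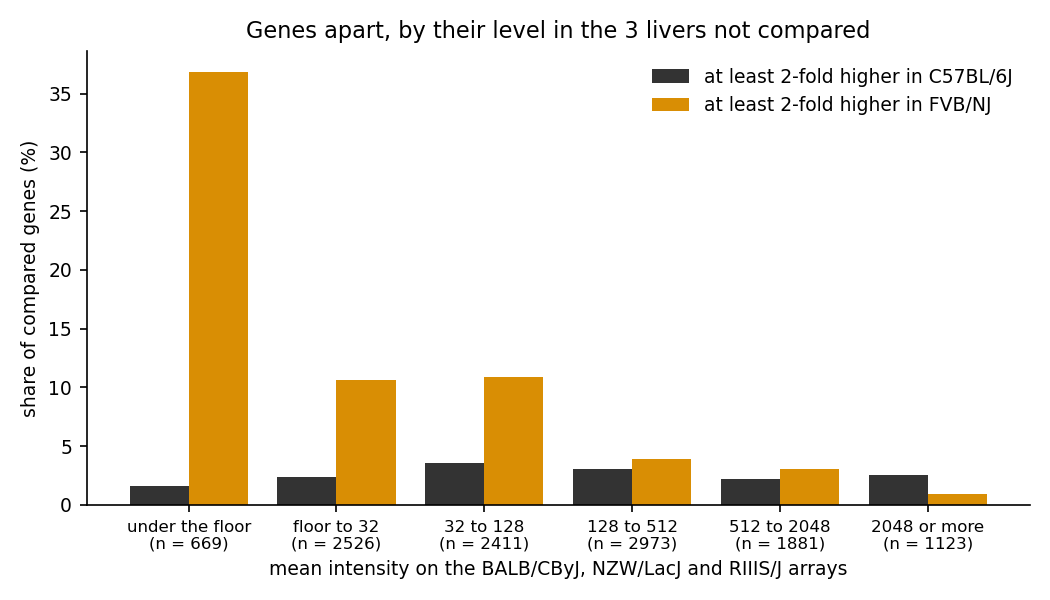
Percent of compared genes at least 2-fold apart (vertical axis) by the mean intensity of the gene on the BALB/CByJ, NZW/LacJ and RIIIS/J arrays (horizontal axis), in each direction. The FVB/NJ-higher share falls from 36.8% among genes under the detection limit on those arrays, which had to be detected on 1 of the 2 compared arrays, to 0.89% at 2048 or more, while the C57BL/6J-higher share stays between 1.64% and 3.57%.

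Hepatocyte genes were bright on both arrays, which shows liver RNA on each but not whether another tissue was also present. Of the 20 hepatocyte identity genes listed, 17 were on the array with a name and all 17 were detected on both arrays, with differences from -0.15 to 0.41. Albumin (Alb) had an intensity of 68895 in C57BL/6J and 64742 in FVB/NJ, and the liver transcription factor gene Hnf4a had 3428 on both. The summed intensity of the identity genes was 565783 in C57BL/6J and 522996 in FVB/NJ, against 543619 to 620277 on the other 3 arrays. The FVB/NJ sum was the lowest of the 5, and the hepatocyte genes were among the brightest on both arrays.

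The FVB/NJ array nevertheless stood apart from the other 4 by its genes of lymphocytes, blood cells and platelets. The summed intensity of 26 named B cell genes was 10812 in FVB/NJ, 382 in C57BL/6J and 293 to 308 on the other 3 arrays. In bulk RNA, more cells of a type and more RNA per cell cannot be told apart. Whether the livers themselves, remaining blood or another tissue held these cells was not tested, and the comparison cannot be made without this array. A further array, that of RIIIS/J, stood apart by pancreatic acinar genes, whose summed intensity was 93501 there and 809 in C57BL/6J and 1158 in FVB/NJ, and it was used as context only. For the RIIIS/J values below, this was not corrected.

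Among the listed groups, lymphoid and blood genes held the most genes past 2-fold. Most of the 961 genes higher in FVB/NJ, 790, were in no list. Of 220 such genes in 10 lists, 185 were on the array and 149 were compared, and 110 of these were at least 2-fold higher in FVB/NJ and 2 in C57BL/6J. Of the 149, 66 were detected in FVB/NJ but not in C57BL/6J and were compared for that reason alone. Among the 80 detected on both arrays, 56 were at least 2-fold higher in FVB/NJ, and the median difference was -2.32. For 106 of the 110 genes the FVB/NJ intensity was also at least 2-fold above that of each of the other 3 strains, while C57BL/6J was not at least 2-fold below all 3.

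B cell genes led this block. Cd79b, a signalling chain of the B cell receptor, had an intensity of 16.4 in C57BL/6J and 3041 in FVB/NJ, and 21.7 to 27.2 on the other 3 arrays. The FVB/NJ value was 186-fold above that of C57BL/6J, the largest difference detected on both arrays in this direction. Its partner chain gene Cd79a was under the limit in C57BL/6J at 5.68 and reached 898 in FVB/NJ, at least 106-fold higher. Ms4a1, which encodes CD20, read 16.3 and 1100, and the B cell coactivator gene Pou2af1 read 5.69 and 503. Of 24 compared B cell genes 23 were at least 2-fold higher in FVB/NJ, with Pou2f2 the exception at 5.03 and 12.2. Detection in FVB/NJ alone had brought in 15 of the 24, and the 9 detected on both arrays were all past 2-fold.

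Immunoglobulin genes had a median of -6.45 over 8 compared genes, 7 of them past 2-fold. With the mean of probe sets this median was -3.89, against -4.36 for the B cell list. Without probe sets that may read several transcripts the immunoglobulin median was -4.82. Of the 7 genes detected on both arrays 6 were past 2-fold, with a median of -6.06. The list was chosen with earlier results of these data known, and it holds the variable segments given below. The heavy chain constant gene Ighm had an intensity of 178 in C57BL/6J and 11859 in FVB/NJ, and 49.2 to 177 on the other 3 arrays. Its 5 other detected probe sets gave differences between -6.77 and -4.76. Jchain, which joins the subunits of IgM and IgA and is made by plasma cells, read 10.0 in C57BL/6J and 1747 in FVB/NJ. The variable segments Ighv14-2 (9.51 and 1504), Igkv8-30 (32.4 and 4063) and Igkv9-120 (7.01 and 973) differed in the same direction. Probes for variable segments may read several related segments, and each segment value is uncertain for that reason.

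MHC class II genes, which present antigen to T cells, were past 2-fold toward FVB/NJ for 7 of 10 compared members, and for 4 of the 6 detected on both arrays. The invariant chain Cd74 had an intensity of 651 in C57BL/6J, 9250 in FVB/NJ and 93.7 to 347 on the other 3 arrays. C57BL/6J was here the second highest of the 5 arrays. H2-Ab1, a class II beta chain, followed the same order with 386, 4259 and 50.6 to 135. H2-Eb1, another class II beta chain, went the other way, with 274 in C57BL/6J, 47.1 in FVB/NJ and 33.1 to 168 on the other 3 arrays. The class II regions of the strains carry different haplotypes, and for any gene here a lower level cannot be told apart from a weaker match of a strain's transcript to the probes, whose sequences were not used.

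T and natural killer cell genes were present on the FVB/NJ array at lower intensities. Of 25 compared, 16 were at least 2-fold higher in FVB/NJ and none in C57BL/6J, but 19 of the 25 were compared only because they were detected in FVB/NJ. Of the 5 detected on both arrays 1 was past 2-fold, with a median of -0.25, and the list median went from -1.83 to -0.52 with the detection limit at the 99th percentile. Cd3d, part of the T cell receptor complex, had 4.57 in C57BL/6J and 165 in FVB/NJ, while Cd3e had 9.77 and 11.6 and Cd8a had 14.1 on both. Satb1, a chromatin organiser of T cells, had 6.65 and 201. The summed intensity of the list was 277 in C57BL/6J and 1259 in FVB/NJ.

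Genes of red cells, platelets and white cells in general went the same way. Of 23 compared erythroid genes 10 were at least 2-fold higher in FVB/NJ and none in C57BL/6J, with a median of -0.89, and 7 of the 16 detected on both arrays were past 2-fold. Slc4a1, the anion exchanger of the red cell membrane, had 13.3 in C57BL/6J, 1096 in FVB/NJ and 13 to 13.3 on the other 3 arrays. Alas2, the first enzyme of haem synthesis in red cell precursors, had 1556 and 2861, under 2-fold. Pf4, a chemokine of platelets, had 28.7 and 1568. Of 9 compared platelet genes 6 were past 2-fold, but 6 of the 9 were compared only because they were detected in FVB/NJ, and 2 of the 3 detected on both arrays were past it. Of 30 compared genes shared by most white cells, 29 were at least 2-fold higher in FVB/NJ, among them Coro1a, an actin-binding protein of leukocytes (58.6 and 5848), and Ptprc, the leukocyte antigen CD45 (112 and 2423). Of the 19 detected on both arrays 18 were past 2-fold. Only Ccr2, the chemokine receptor of monocytes, stayed under 2-fold in that list, at 11.5 and 14.6. Of 15 neutrophil genes on the array 5 were compared, and 4 were past 2-fold toward FVB/NJ. Dendritic cell genes did not follow. Of 6 compared, 2 were past 2-fold toward FVB/NJ and 1 toward C57BL/6J, with a median of 0.03 for the 5 detected on both arrays. Cd24a, a surface glycoprotein of B cells and red cell precursors that bile duct cells also carry, had 45.4 in C57BL/6J, 3945 in FVB/NJ and 30.7 to 48.5 on the other 3 arrays. It set the summed intensity of the cholangiocyte list apart, at 1052 and 4643, in which 7 of 9 compared genes were under 2-fold.

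**Figure D3:**
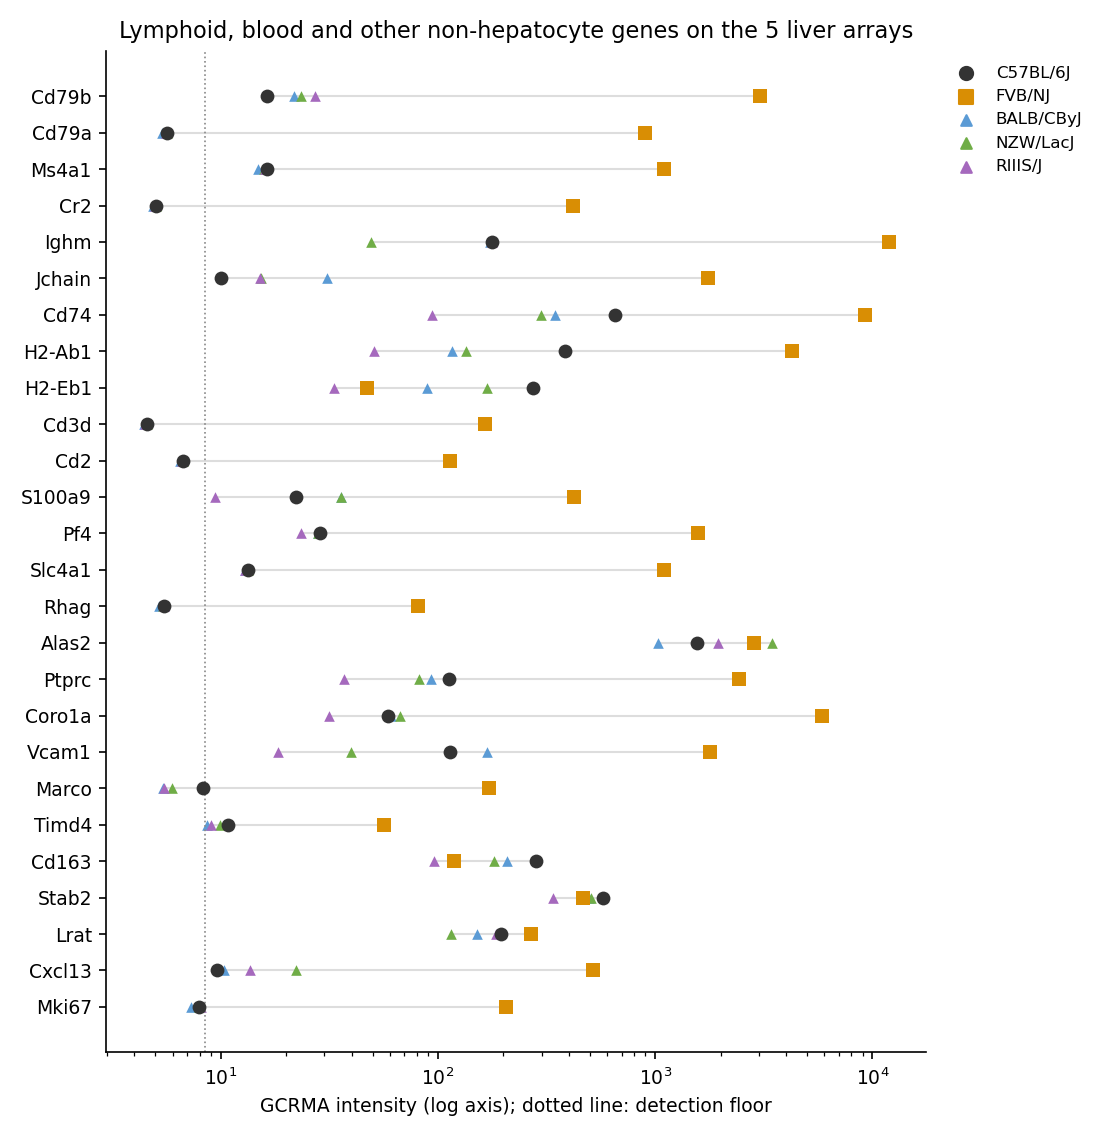
Intensity on a log axis of selected lymphoid and blood genes on each of the 5 arrays, 1 point per array with no error bar since each strain had 1 array. The FVB/NJ point lies above those of the other 4 arrays for Cd79b (3041) and Ighm (11859), whose other arrays read at most 27.2 and 178.

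Resident cells of the liver did not move as 1 block. Endothelial genes were close on the 2 arrays, with a median of 0.09 over 23 genes and 1 gene past 2-fold. Stab2, a scavenger receptor of sinusoidal endothelium, had an intensity of 575 in C57BL/6J and 467 in FVB/NJ. Vwf, a clotting protein of endothelium and platelets, was the gene past 2-fold, at 46.5 and 113. Among 20 Kupffer cell and macrophage genes, Cd163, a haemoglobin scavenger receptor, and Folr2, a folate receptor of resident macrophages, were higher in C57BL/6J, at 282 and 118 and at 70.1 and 31.9. In the same list 5 genes were at least 2-fold higher in FVB/NJ, among them the scavenger receptor gene Marco at 8.27 and 172 and Timd4 at 10.8 and 56.5. Other probe sets of Marco gave -0.61 against -4.34. The Kupffer cell lectin Clec4f was similar, at 683 and 600.1.

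Of 26 compared genes in the stellate cell and fibroblast list, 8 were at least 2-fold higher in FVB/NJ, 1 in C57BL/6J, and 17 were under 2-fold. Acta2, smooth muscle actin, had 77.9 in C57BL/6J, 823 in FVB/NJ and 58.1 to 76.9 on the other 3 arrays. Mgp, a matrix protein that limits calcification, had 24.8 and 118. The stellate cell genes Lrat (195 and 268), which stores vitamin A, and Reln (1101 and 1019) stayed within 2-fold. Tpm2, a tropomyosin of smooth muscle, was the gene higher in C57BL/6J, at 229.7 and 91.2, a difference of 0.88 by the mean of its probe sets. Of 9 spleen stroma genes on the array 4 were compared. Cxcl13, the chemokine that draws B cells into follicles, had 9.57 and 515, and Coch had 6.81 and 468. The other 2 were under 2-fold, Fbln2 at 10.9 and 9.78 and Il33 at 7.67 and 9.37, and the list median of -2.95 was -0.01 with no floor and -0.15 after quantile normalisation. Their part, and that of the blood and lymphoid genes, in the stellate and macrophage values was not tested.

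Hepatocyte genes leaned slightly toward C57BL/6J. Of 482 hepatocyte genes in no lymphoid or blood list, 423 were on the array and 407 were compared, and 34 were at least 2-fold higher in C57BL/6J and 12 in FVB/NJ. In intensity, 297 were above in C57BL/6J, 99 were above in FVB/NJ and 11 were equal, with a median difference of 0.17. Over the 5963 compared liver-expressed genes in no lymphoid or blood list, 160 (2.68%) were at least 2-fold higher in C57BL/6J and 177 (2.97%) in FVB/NJ, with a median of 0.03. Over all 11583 compared genes the shares were 2.75% and 8.3%. The counts of each hepatocyte list below are to be read beside these shares and beside the 34 and 12 of 407. The hepatocyte median moved between 0.07 and 0.20 under the other processing choices, with 0.10 after loess and 0.07 after centring on the identity genes. Bright genes of any kind leaned the same way. At a mean of 2048 or more on the other 3 arrays, 29 of 1123 genes were past 2-fold toward C57BL/6J and 10 toward FVB/NJ, with a median of 0.10. How far the hepatocyte lean goes with intensity was not tested. The identity gene sum was lowest and the B cell sum highest on the FVB/NJ array, as given above, and their part in this median was not tested.

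**Figure D4:**
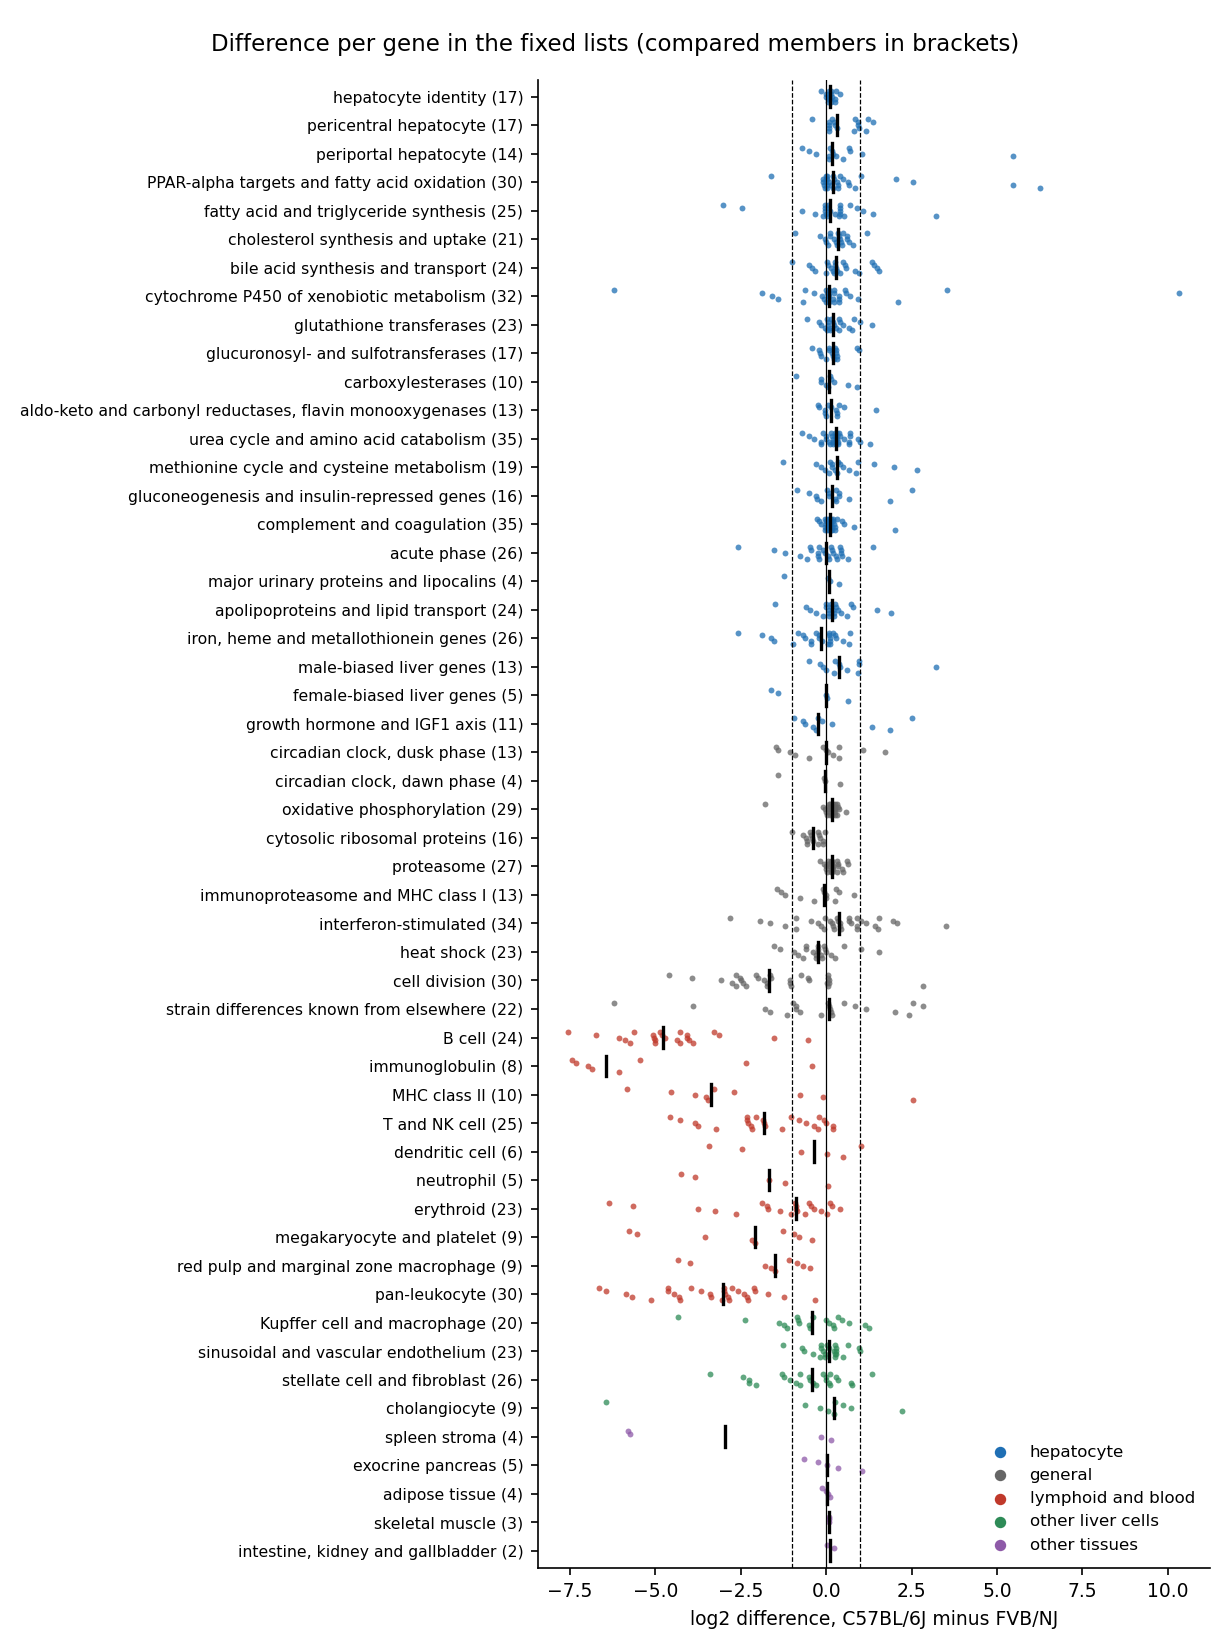
Log2 difference of C57BL/6J minus FVB/NJ for the compared members of each gene list, 1 point per gene with the list median marked. Hepatocyte lists centre near 0 with medians from -0.23 for the growth hormone and IGF1 axis to 0.39 for male-biased genes, while the B cell and immunoglobulin lists centre at -4.77 and -6.45.

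Cytochrome P450 genes held the single largest difference. Cyp2c37, an oxidase of the Cyp2c cluster that acts on fatty acids, had an intensity of 37234 in C57BL/6J, 28.9 in FVB/NJ, 29.5 in BALB/CByJ, 18.7 in NZW/LacJ and 47003 in RIIIS/J. The 5 strains fell into a high pair and a low group of 3, and the C57BL/6J value was 1289-fold above that of FVB/NJ. This value rests on 1 probe set, and close relatives in the same cluster did not share the pattern. Cyp2c50 had 17978 in C57BL/6J and 11978 in FVB/NJ, Cyp2c54 had 10326 and 7902, and Cyp2c29 had 18337 and 23602. Cyp2c genes are near copies of each other, so how far each probe set reads 1 gene is uncertain.

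Further Cyp2c genes differed in opposite directions. Cyp2c55 had 835 in C57BL/6J and 71.6 in FVB/NJ, with 203 to 1037 on the other 3 arrays, so that FVB/NJ was the lowest. Cyp2c39, an oxidase known for acting on retinoic acid, was under the detection limit in C57BL/6J at 6.25, had 631 in FVB/NJ, and 19.5 to 248 on the other 3 arrays. These put C57BL/6J lowest and FVB/NJ highest of the 5 strains for Cyp2c39. Cyp3a13, of the family that oxidises many drugs, read 3567 and 839, higher in C57BL/6J. Cyp2b10, the usual target of the receptor CAR, read 308 and 925, and Cyp2d13 read 1204 and 4396, both higher in FVB/NJ.

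In all, 3 of 32 compared P450 genes of foreign-compound metabolism were at least 2-fold higher in C57BL/6J and 4 in FVB/NJ, with a median of 0.08. The abundant members were close: Cyp2e1 had 43562 and 41254, Cyp3a11 had 31816 and 30288, and Cyp1a2 had 17930 and 15156. The differences in this family thus lay in a few genes and went both ways. None of 17 compared UDP-glucuronosyltransferase and sulfotransferase genes and none of 10 carboxylesterase genes was past 2-fold.

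Glutathione transferase genes, which join glutathione to reactive compounds, were also close for 22 of 23 listed members. Gstm6 was the exception, at 1323 in C57BL/6J and 523 in FVB/NJ. Outside the list, the pi-class gene Gstp3 had 192 in C57BL/6J, 18002 in FVB/NJ, 303 in BALB/CByJ, 3271 in NZW/LacJ and 230.4 in RIIIS/J. FVB/NJ was far above all other strains, by 93.8-fold over C57BL/6J, on the gene's 1 probe set. Its relative Gstp1, the main pi-class gene of male mouse liver, had 54136 and 41282.

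Targets of PPAR-alpha, the fatty acid receptor that turns on fat burning, included 2 of the largest differences toward C57BL/6J. Vnn1, a pantetheinase and a target of this receptor, had an intensity of 2557 in C57BL/6J, 33.1 in FVB/NJ and 33.0 to 45.5 on the other 3 arrays. Cyp4a14, a fatty acid omega-hydroxylase, had 3880 in C57BL/6J, 86.9 in FVB/NJ and 9.71 to 65.7 on the other 3 arrays. C57BL/6J alone was high for both genes, 77.2-fold and 44.6-fold above FVB/NJ, and the other detected probe set of Vnn1 gave 6.06 against 6.27. Vnn3, the neighbour of Vnn1, and Cd36, a fatty acid uptake protein, were also highest in C57BL/6J, at 1169 and 202 and at 1027 and 248. Without probe sets that may read several transcripts, the difference of Cd36 was 0.92 in place of 2.05.

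The rest of the fat-burning list did not follow these genes. Of 30 compared members 5 were at least 2-fold higher in C57BL/6J and 1 in FVB/NJ, with a median of 0.20. Ppara itself had 4172 and 3612, Cpt1a, which carries fatty acids into mitochondria, had 2310 and 2272, Ehhadh of the peroxisome had 3801 and 3274, and the fatty acid carrier Fabp1 had 81200 and 84229. Acot3, a peroxisomal thioesterase, was higher in FVB/NJ, at 233 and 718. Plin2, which coats lipid droplets, was just past 2-fold toward C57BL/6J, at 8588 and 4249 (1.02), and just under it after quantile normalisation (0.96), loess (0.93) or centring (0.92 and 0.99).

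Genes of fat synthesis went both ways. Elovl3, a fatty acid elongase with a male-biased level in liver, had 6203 in C57BL/6J, 676 in FVB/NJ, 4264 in BALB/CByJ, 7878 in NZW/LacJ and 1096 in RIIIS/J. FVB/NJ and RIIIS/J were low, and the other 12 compared male-biased genes were under 2-fold. Gpat3, which starts triglyceride assembly, was low in C57BL/6J alone, at 25.0 against 201 in FVB/NJ and 201 to 301 on the other 3 arrays. Scd2, a fatty acid desaturase, was high in FVB/NJ alone, at 242 against 44 in C57BL/6J, but the mean of its probe sets gave -0.79 in place of -2.46. The main desaturase Scd1 had 34728 and 28785, and the fatty acid synthase gene Fasn had 2725 and 2037. In all, 3 of 25 compared genes were past 2-fold toward C57BL/6J and 2 toward FVB/NJ.

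Hsd17b13, which encodes a protein of hepatocyte lipid droplets, was low in FVB/NJ alone by the probe set used, at 195 against 8625 in C57BL/6J and 8338 to 10015 on the other 3 arrays. Its other detected probe set gave the opposite difference, -5.36 on the log2 scale, and the mean of the probe sets gave -0.37. No direction is therefore given for the whole transcript of this gene. Pctp, the phosphatidylcholine transfer protein, had 2047 in C57BL/6J, 121 in FVB/NJ and 254 to 548 on the other 3 arrays, and its other probe set agreed in direction at 4.34.

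Cholesterol synthesis genes lay slightly higher in C57BL/6J, with a median of 0.35 over 21 genes and 1 past 2-fold. That gene, the sterol desaturase Sc5d, had 12212 and 5334, while its other probe sets gave differences of 0.00 to 0.19. Pltp, the phospholipid transfer protein of plasma, was highest in C57BL/6J, at 5238 against 1412 in FVB/NJ and 802 to 965 on the other 3 arrays. Apoa4, an apolipoprotein of triglyceride-rich particles, was lowest in C57BL/6J, at 486 against 1379 in FVB/NJ. Apoe had 39940 and 37412 and Apob had 24508 and 16062.

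Of 24 compared bile acid genes 4 were at least 2-fold higher in C57BL/6J and none in FVB/NJ, with a median of 0.29. Over the 407 compared hepatocyte genes these counts were 34 and 12, with a median of 0.17, so few genes toward FVB/NJ would be met in any list of this size. Abcb11, the pump that exports bile salts into bile, had 5574 in C57BL/6J, 1915 in FVB/NJ, 4007 in BALB/CByJ, 4992 in NZW/LacJ and 2296 in RIIIS/J. FVB/NJ was the lowest strain, with RIIIS/J close to it. Cyp8b1, the enzyme that directs synthesis to cholic acid, had 7124 in C57BL/6J, 2530 in FVB/NJ and 4961 to 7520 on the other 3 arrays. Abcc2, which exports conjugated bilirubin, had 2078 and 827, and Cyp39a1, an oxysterol hydroxylase, had 459.7 and 173. The rate-limiting enzyme Cyp7a1 lay the other way but under 2-fold, at 5113 and 6814. The uptake carrier Slc10a1 had 13484 and 11228, and the bile acid receptor Nr1h4 had 2314 and 1881.

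Amino acid genes were mostly under 2-fold. Of 35 compared genes of the urea cycle and amino acid catabolism, only Got1, a transaminase of the cytosol, was past 2-fold, at 3614 in C57BL/6J and 1485 in FVB/NJ. The urea cycle enzymes Cps1 (24003 and 22426) and Arg1 (27919 and 22993) were close. In the methionine and cysteine list 15 of 19 compared genes were under 2-fold, with a median of 0.31, beside 0.28 for the urea cycle and catabolism list. Of its other members 3 were past 2-fold toward C57BL/6J and 1, the thiopurine methyltransferase gene Tpmt, toward FVB/NJ at 1243 and 2975, with 0.14 by its other probe sets. Cth, which makes cysteine from cystathionine, had 11298 in C57BL/6J, 2862 in FVB/NJ and 8986 to 13991 on the other 3 arrays. As3mt, the arsenic methyltransferase, had 588 in C57BL/6J, 93.4 in FVB/NJ and 326 to 352 on the other 3 arrays. FVB/NJ was alone at the low end for both genes. Cbs, the enzyme before Cth, had 3241 and 2047, and Bhmt, which remakes methionine, had 51222 and 26747, both under 2-fold.

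Hormone-related genes of hepatocytes included the binding proteins of insulin-like growth factor. Igfbp1, which insulin represses, had 788 in C57BL/6J, 139 in FVB/NJ and 114 to 260.3 on the other 3 arrays, so that C57BL/6J alone was high. Igfbp2 had 9991 in C57BL/6J, 2709 in FVB/NJ and 3994 to 5616 on the other 3 arrays, with C57BL/6J highest and FVB/NJ lowest. Igf1 itself lay lower in C57BL/6J under 2-fold, at 8371 and 13438. The gluconeogenic enzymes Pck1 (16061 and 15077) and G6pc (1687 and 2036), which insulin also represses, were close. Only the 2 binding proteins were past 2-fold among 16 compared genes of that list.

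Along the axis of the lobule, 16 of 17 compared pericentral genes had a higher intensity in C57BL/6J, with a median of 0.32 and 3 past 2-fold. Most hepatocyte genes leaned this way, 297 of the 407 compared in no lymphoid or blood list and 14 of the 17 identity genes. Slc1a2, a glutamate carrier of the cells around the central vein, had 1071 in C57BL/6J, 414 in FVB/NJ and 166 to 473 on the other 3 arrays. Glul, glutamine synthetase of the same cells, had 9787 and 5040, and Axin2, a target of Wnt signalling, had 26 and 13.6, both just under 2-fold. Lgr5 (56.1 and 24.8) and the transcription factor gene Tbx3 (435 and 187) were past it. By the mean of probe sets all 3 were under 2-fold, Slc1a2 at 0.61, Lgr5 at 0.64 and Tbx3 at 0.79. The abundant pericentral genes Cyp2e1 and Cyp1a2 were close, as given above. Of 14 periportal genes 2 were past 2-fold toward C57BL/6J, the adhesion gene Cdh1 at 999.7 and 479.9 (1.06, or 0.96 after centring on the identity genes) and Hsd17b13 with its conflicting probe sets, and their median was 0.19.

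**Figure D5:**
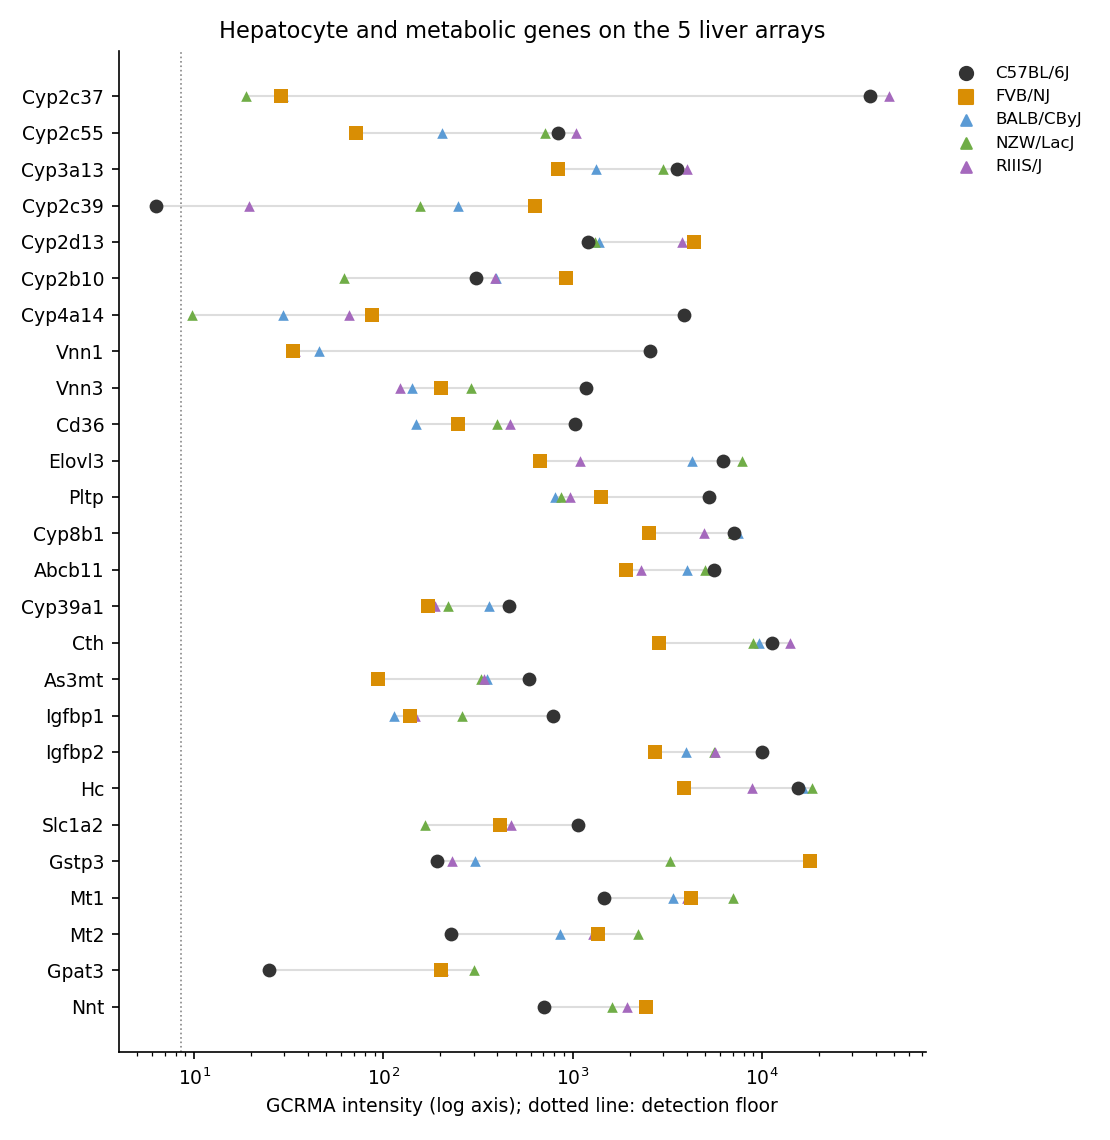
Intensity on a log axis of selected hepatocyte genes on each of the 5 arrays, 1 point per array with no error bar since each strain had 1 array. Vnn1 and Cyp4a14 are high in C57BL/6J alone (2557 and 3880), Cth is low in FVB/NJ alone (2862), and Cyp2c37 divides the strains into a pair at 37234 and 47003 and a group of 3 at 18.7 to 29.5.

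Complement and clotting genes were under 2-fold with 1 exception. Of 35 compared complement and coagulation genes, only Hc, complement component C5, was past 2-fold, with 15434 in C57BL/6J, 3858 in FVB/NJ and 8899 to 18320 on the other 3 arrays. FVB/NJ is known as a strain without C5 protein in plasma. The fibrinogen chains, prothrombin and the components of C8 and C9 lay between -0.26 and 0.27 on the log2 scale. In the acute phase list 22 of 26 compared genes were under 2-fold, among them Saa1 (766 and 1310) and Hp (26967 and 21801), with NZW/LacJ far higher for Saa1 at 18764. Lcn2, an iron-binding defence protein, was higher in FVB/NJ at 14.1 and 32.7 with both metallothionein genes. Socs3, a brake on cytokine signalling, was higher in C57BL/6J at 225 and 86.5. Lcn2 was under 2-fold with the higher detection limit (-0.23) and after quantile normalisation (-0.94). Socs3 was under it by its other probe sets (0.73) and without probe sets that may read several transcripts (0.15).

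Nnt, the mitochondrial transhydrogenase, is known to carry a deletion in C57BL/6J. Its intensity was lowest there, at 708 against 2430 in FVB/NJ and 1616 to 2475 on the other 3 arrays. The oxidative phosphorylation list, in which this transhydrogenase was placed, had no other gene past 2-fold among 29 compared. Of 22 compared genes listed for strain differences known from elsewhere, 5 were past 2-fold in each direction. Hc and Nnt are among them, and Hddc3, a nucleotide hydrolase, had 13 in C57BL/6J, 195 in FVB/NJ and 375 to 599 on the other 3 arrays. Pttg1, the chromosome separation inhibitor securin, was high in C57BL/6J alone, at 3948 against 552 in FVB/NJ and 166 to 316 on the other 3 arrays.

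Metallothioneins, small proteins that bind zinc and copper and are turned on by metals and glucocorticoids, were lowest in C57BL/6J. Mt1 had an intensity of 1460 in C57BL/6J, 4235 in FVB/NJ, 3372 in BALB/CByJ, 7021 in NZW/LacJ and 3995 in RIIIS/J. Mt2 had 228 in C57BL/6J, 1356 in FVB/NJ, 855 in BALB/CByJ, 2201 in NZW/LacJ and 1274 in RIIIS/J. The order of the 5 strains was the same for both genes, which lie side by side in the genome. Mt2 was 5.94-fold and Mt1 2.90-fold higher in FVB/NJ, and the other probe set of Mt1 gave -2.82 against -1.54. The promoters of this pair are shown because the genes moved together. They are 250 bases up to the start site from RefSeq (GRCm38.p6, + strand, chr8:94178839-94179088 for Mt1 and chr8:94172368-94172617 for Mt2), with matches to the core of the metal response element (TGCACNC or TGCGCNC, either strand) in capitals.
Mt1: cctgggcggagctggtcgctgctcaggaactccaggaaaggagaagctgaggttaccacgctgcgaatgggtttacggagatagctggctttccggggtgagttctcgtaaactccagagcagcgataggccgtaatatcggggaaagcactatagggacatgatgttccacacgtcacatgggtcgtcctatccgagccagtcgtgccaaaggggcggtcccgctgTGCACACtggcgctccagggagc
Mt2: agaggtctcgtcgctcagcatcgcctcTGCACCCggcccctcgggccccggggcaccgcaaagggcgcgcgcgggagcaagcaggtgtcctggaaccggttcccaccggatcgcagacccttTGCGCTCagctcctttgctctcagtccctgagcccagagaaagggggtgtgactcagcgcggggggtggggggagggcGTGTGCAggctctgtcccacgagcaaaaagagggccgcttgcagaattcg
The Mt1 window held 1 match, at 23 bases before the start, and the Mt2 window held 3, at 223, 128 and 50 bases. Each gene had 1 window, which ended at its annotated start site, and matches outside it were not looked for. The counts therefore do not show how many such elements either promoter has. Of all 32851 promoter windows of this length in the table, 21.4% held at least 1 match, so a match is common. These letters come from the reference genome and show no difference between the strains.

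Other iron and haem genes were mixed. Of 26 compared genes in that group, 4 were at least 2-fold higher in FVB/NJ and none in C57BL/6J. Besides the metallothioneins these were Hmox1, the haem-degrading enzyme, at 123 and 373, and Tfrc, the transferrin receptor, at 337 and 1248. Hmox1 is abundant in spleen macrophages and Tfrc in red cell precursors, and the erythroid sum was 10965 in C57BL/6J and 21558 in FVB/NJ. The part of those cells in both values was not tested, and Tfrc gave 0.21 by its other probe sets. Hamp, the iron hormone hepcidin of hepatocytes, had 39899 and 53608.

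Interferon-stimulated genes divided into sets that went opposite ways. Of 34 compared, 8 were at least 2-fold higher in C57BL/6J and 4 in FVB/NJ, with a median of 0.38. Usp18, which removes the ubiquitin-like ISG15, had 121 in C57BL/6J, 10.6 in FVB/NJ, 132 in BALB/CByJ, 78.3 in NZW/LacJ and 16.3 in RIIIS/J. Ifit3, an antiviral RNA-binding protein, followed with 204 in C57BL/6J, 49.0 in FVB/NJ, 138 in BALB/CByJ, 189 in NZW/LacJ and 14.2 in RIIIS/J. C57BL/6J, BALB/CByJ and NZW/LacJ were thus above FVB/NJ and RIIIS/J for both genes. Ifit1 had 44.2 and 16.5, under 2-fold at 0.67 with the higher detection limit, the transcription factor gene Irf7 had 83.5 and 29.2, and the RNA sensor gene Ifih1 had 629 and 278.

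The opposite set was high in FVB/NJ alone for 3 of its 4 genes. Rsad2, which encodes viperin, had 195 in C57BL/6J, 1358 in FVB/NJ, 218 in BALB/CByJ, 115 in NZW/LacJ and 192 in RIIIS/J. Gbp2, a guanylate-binding protein induced most strongly by interferon gamma, had 33.3 in C57BL/6J, 104 in FVB/NJ and 9.89 to 17.7 on the other 3 arrays. Trim30a had 50.4 and 193, but its other probe sets gave -0.09 in place of -1.94. Igtp, an immunity-related GTPase, had 452 and 1048, and its FVB/NJ value lay among those of the other 3 strains, at 745 to 1078. Apart from the dendritic cell list, the lymphoid and blood lists had their highest summed intensity on the same FVB/NJ array. The dendritic cell sum was 1800 in FVB/NJ and 2785 in C57BL/6J. What part these lists had in the interferon values was not tested.

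Promoters from each set are shown, since the same motif occurs in both. They are 250 bases up to the start site from RefSeq (GRCm38.p6, + strand for Ifit3 at chr19:34583279-34583528, Ifit1 at chr19:34640639-34640888 and Gbp2 at chr3:142620413-142620662, - strand for Rsad2 at chr12:26456453-26456702), printed 5' to 3' along the gene. Capitals mark matches to the interferon response motif GAAANNGAAA on either strand.
Ifit3: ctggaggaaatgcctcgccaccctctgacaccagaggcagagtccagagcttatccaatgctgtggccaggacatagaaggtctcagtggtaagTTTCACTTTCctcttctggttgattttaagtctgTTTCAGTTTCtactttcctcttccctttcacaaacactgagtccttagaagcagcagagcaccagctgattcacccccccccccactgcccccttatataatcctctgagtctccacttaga
Ifit1: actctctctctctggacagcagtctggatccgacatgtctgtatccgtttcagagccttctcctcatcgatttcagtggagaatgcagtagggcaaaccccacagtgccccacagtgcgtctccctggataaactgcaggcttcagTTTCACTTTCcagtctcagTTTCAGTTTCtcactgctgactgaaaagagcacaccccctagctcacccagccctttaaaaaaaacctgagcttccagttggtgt
Rsad2: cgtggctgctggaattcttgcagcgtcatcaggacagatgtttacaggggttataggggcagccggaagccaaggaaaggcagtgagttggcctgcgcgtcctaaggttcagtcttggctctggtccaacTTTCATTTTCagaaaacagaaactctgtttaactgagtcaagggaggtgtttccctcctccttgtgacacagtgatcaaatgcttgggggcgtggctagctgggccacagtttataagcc
Gbp2: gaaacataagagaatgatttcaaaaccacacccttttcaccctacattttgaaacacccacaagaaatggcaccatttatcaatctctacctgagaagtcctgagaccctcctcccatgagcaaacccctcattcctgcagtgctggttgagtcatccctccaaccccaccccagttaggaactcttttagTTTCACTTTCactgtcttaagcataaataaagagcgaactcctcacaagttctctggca
Ifit3 held 2 matches, at 156 and 122 bases before the start, and Ifit1 held 2, at 104 and 85 bases. Rsad2 held 1 at 120 bases and Gbp2 held 1 at 59 bases. Of 32851 windows, 2.98% held the motif. Of the 11 interferon-stimulated genes past 2-fold in no lymphoid or blood list, 9 had a window and 6 of these held a match, Trim30a and Igtp also being among the 6. Trim30a held its match in only 1 of its 2 windows. The genes with a window and no match, Ifih1, Irf7 and Oasl1, were all higher in C57BL/6J. The motif was thus found in genes of both directions, and its absence from the other windows says only that these letters were not in them.

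Most compared cell division genes and all compared ribosomal protein genes were higher in FVB/NJ. Of 30 compared cell division genes 20 were at least 2-fold higher in FVB/NJ, and Pttg1 was the 1 gene at least 2-fold higher in C57BL/6J. Of the 21 detected on both arrays, 15 were past 2-fold toward FVB/NJ. Over all compared genes the share past 2-fold toward FVB/NJ was 8.3%. The list median of -1.69 was -1.05 with the mean of probe sets and -1.06 without probe sets that may read several transcripts. Several of the 20 genes fell under 2-fold with another choice, among them Cdk1 (-0.1 with the higher detection limit) and Mcm3 (-0.91 by the mean of probe sets). Mki67, the proliferation antigen, was under the limit in C57BL/6J at 7.97, reached 206 in FVB/NJ and read 7.28 to 8.13 on the other 3 arrays. Mcm5, part of the replicative helicase, had 94.3 in C57BL/6J, 635 in FVB/NJ and 60.9 to 92.5 on the other 3 arrays. All 16 compared ribosomal protein genes had a higher intensity in FVB/NJ, under 2-fold in each, with a median of -0.40. The B cell sum of 10812 on the same array stands beside both groups, and its part in them was not tested.

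Genes of the daily clock and of the heat shock response differed one by one. Of 13 compared clock genes that peak near dusk, Nr1d1, a repressor of the clock, was higher in C57BL/6J (314 and 95.4) with Ciart, and Per3 was higher in FVB/NJ (104 and 277) with Per2 and Tsc22d3. Other probe sets put Per3 at -0.34, Per2 at 0.08 and Tsc22d3 at -0.71, all under 2-fold, and Ciart was at 0.98 after centring on the identity genes. Dbp, a clock output gene with a wide daily swing, had 6439 and 4940. The hour at which the livers were taken was not given in the sources used here. Of 23 heat shock genes, Hspa1b (644 and 1851) and Hsph1 (357 and 901) were higher in FVB/NJ, and the small heat shock gene Hspb1 (306 and 104) was higher in C57BL/6J. Hspa4l was just past 2-fold toward C57BL/6J (87.1 and 43.3), with -0.05 by its other probe sets.

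Among liver-expressed genes outside these groups, the largest differences toward C57BL/6J included Nnmt, nicotinamide N-methyltransferase, with 2913 in C57BL/6J, 273 in FVB/NJ and 424 to 5114 on the other 3 arrays. Xdh, which makes uric acid, had 1275 and 142, with 81.1 to 1035 elsewhere. Them7 (467 and 14.8), a thioesterase superfamily gene, and A2ml1 (642 and 32.3), related to alpha-2-macroglobulin, were also low in FVB/NJ. Trib3, a stress-induced pseudokinase, had 253 and 23.9, and Yae1d1 had 256 and 26.5. For these 6 genes the strain order differed from gene to gene, and FVB/NJ was lowest of the 5 for all but Xdh.

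Toward FVB/NJ, the same choice named genes of several kinds. Abhd1, a hydrolase-fold gene, had 54.0 in C57BL/6J, 905 in FVB/NJ, 1273 in BALB/CByJ, 35.6 in NZW/LacJ and 1499 in RIIIS/J. C57BL/6J and NZW/LacJ were low and the other 3 high. Serpina4-ps1, a pseudogene of the serpin family, had 491 and 4590, and Acnat2, which joins fatty acids to amino acids, had 31.2 and 237. Tmsb10 (1511 and 22437), an actin-binding peptide, Crip1 (149 and 1744) and the ubiquitin ligase Mkrn1 (181 and 1428) were high in FVB/NJ alone. The probe set used for Tmsb10 may read other transcripts, and without such probe sets its difference was 0.15. Its 4 other detected probe sets lay between -4.47 and 0.33, and 2 of them were past 2-fold toward FVB/NJ. Pik3ap1, a B cell signalling adaptor, had 52.4 and 836, but its other probe sets gave 0.48. Cap1, an actin regulator, had 162 and 1406, and its other probe set gave -4.59. High in FVB/NJ alone, as Tmsb10, Crip1 and Mkrn1 were, is also how 106 of the 110 lymphoid and blood genes higher in FVB/NJ stood. The part of lymphoid and blood cells in the values of this paragraph was not tested.

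Outside the liver-expressed genes, Clec2h, a lectin-like membrane protein, had 636 in C57BL/6J, 9.24 in FVB/NJ, 8.83 in BALB/CByJ, 558 in NZW/LacJ and 250 in RIIIS/J. Gm13306 (214 and 9.61) and the collagen gene Col5a3 (172 and 8.94) were high in C57BL/6J alone. Among genes not detected in FVB/NJ, Mndal, of the interferon-inducible p200 family, was at least 39.2-fold higher in C57BL/6J at 332, with 6.84 to 274 on the other 3 arrays. Zfp874a at 328, Gm7969 at 255 and Olig1 at 148 were detected in C57BL/6J alone of the 5 strains. Trim34a, at 90.9 in C57BL/6J, gave the opposite difference of -1.05 by other probe sets. Gdpd3, a lysophospholipase, was the reverse case, under the limit in C57BL/6J at 4.65, with 1827 in FVB/NJ and 1142 in RIIIS/J, at least 216-fold higher in FVB/NJ.

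The other 3 strains were set beside each difference. Of the 961 genes higher in FVB/NJ, 688, or 71.6%, were high in FVB/NJ alone, that is at least 2-fold above all other strains, and 48 were low in C57BL/6J alone. Among the 183 liver-expressed genes higher in FVB/NJ, 64 (35.0%) were high in FVB/NJ alone and for 61 (33.3%) the other strains were divided. Of the 319 genes higher in C57BL/6J, 56 were high in C57BL/6J alone, 62 were low in FVB/NJ alone and for 136 (42.6%) the other strains were divided. Of the 34 hepatocyte genes higher in C57BL/6J, 7 were high in C57BL/6J alone (Cd36, Cyp4a14, Igfbp1, Pltp, Slc1a2, Vnn1 and Vnn3), and 8 were low in FVB/NJ alone (As3mt, Cish, Cth, Cyp2c55, Got1, Hc, Lpl and, by 1 of its conflicting probe sets, Hsd17b13). With the higher detection limit Cish was under 2-fold, at 0.97. For 15 of the 34 the other strains were divided. Of the 12 hepatocyte genes higher in FVB/NJ, Acot3, Cyp2b10 and Scd2 were high in FVB/NJ alone and Apoa4, Gpat3, Mt1 and Mt2 were low in C57BL/6J alone.

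Against the other strains, which share the C57BL/6J array, the same 2-fold threshold gave 244 genes higher in C57BL/6J and 333 higher in BALB/CByJ, 466 and 389 for NZW/LacJ, and 647 and 429 for RIIIS/J. FVB/NJ had the most genes above C57BL/6J of the 4 and fewer below it than NZW/LacJ or RIIIS/J.

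A check within each array was given by genes with a further detected probe set. Of the 161 liver-expressed genes at least 2-fold higher in C57BL/6J, 63 had one, and for 53 of these every further probe set differed in the same direction. Of the 183 higher in FVB/NJ, 125 had one and 83 agreed throughout. Over 5107 genes with a further probe set, the log2 differences given by probe sets of the same gene lay a median of 0.25 apart, and 1.36 apart at the 95th percentile. A single difference near 2-fold is therefore within the range over which probe sets of 1 gene disagree.

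Some genes past 2-fold were neighbours along the chromosomes. Of all compared genes 2.75% were past it toward C57BL/6J and 8.3% toward FVB/NJ, and shares of this size give some neighbours by themselves. How many runs these shares would give among the 11564 genes placed in order was not computed, so the counts of runs are no sign of clustering. In gene order from RefSeq, 11 runs of neighbouring compared genes were at least 2-fold higher in C57BL/6J, with 23 genes, and 94 runs were so in FVB/NJ, with 214 genes. Runs with 2 or more liver-expressed genes higher in C57BL/6J were Tpd52l1 with Rnf217, Prxl2c with Ctsl, Ndufaf7 with Prkd3 and Qpct, Mccc1 with Acad9, Aadac with Sucnr1, and Mad2l2 with Fbxo6. Ctsl, a lysosomal protease, had 15475 in C57BL/6J, 5642 in FVB/NJ and 15475 to 16636 on the other 3 arrays, low in FVB/NJ alone. Sucnr1, the succinate receptor, had 2061 and 626, and its neighbour Aadac, a lipid esterase, had 13380 and 6276. Toward FVB/NJ such runs were Lyz2 with Lyz1, Cnp with Dnajc7, Rbm39 with Phf20, Ppt1 with Cap1, Hddc3 with Man2a2, and Mt2 with Mt1. Lyz1 and Lyz2 are near copies that their probes may not separate.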

How the data were processed

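Liver RNA pools of 5 inbred strains were measured on 5 Affymetrix Mouse430_2 arrays, 1 per strain, and 2 of them were compared. The authors deposited intensities on a linear scale. The submitters' processing notes name GCOS and GCRMA, and versions, settings and batches are not given in the sources used here. RNA was extracted with Trizol and RNeasy, per the labels' protocols.

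Of 45101 probe sets, 64 were controls, and the platform annotation named 1 gene for 34958, several for 932 and none for 9211. Only those with 1 gene were used, and 34754 of them matched the RefSeq gene table (GRCm38.p6), which gave names and gene order only. Intensities were converted to log2. Values under the floor (intensity 8.48) were raised to it. With 1 array per strain there was no test, and precision is limited by the array number. Calculations used Python 3.11.15, numpy 2.4.6, pandas 2.3.3 and statsmodels 0.14.6, and were tested on simulated data.

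Genes named were, in each direction, the 10 with the largest difference detected on both arrays, the 5 with the largest lower bound, the 12 with the largest difference among liver-expressed genes in no lymphoid or blood list, list members and runs of neighbours. Close relatives of Cyp2c37 and Gstp3 and further probe sets were added as context. The 52 lists held 1096 genes, of which 844 were compared; the others were not detected or not analysed here. The comparison and lists were chosen with earlier results of these data known. Alternatives were the 99th percentile floor, no floor, the mean of probe sets, no shared-transcript probe sets, quantile normalisation, centring, loess, other probe sets and a 4-fold threshold.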

Additional observations from a re-analysis of the deposited data

How the results depend on the processing

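At a 4-fold threshold 66 genes were higher in C57BL/6J and 418 in FVB/NJ, against 319 and 961 at 2-fold. At 2-fold, every other choice gave 240 to 463 and 674 to 1097. The lymphoid and blood median of -2.57 was -2.29 with the 99th percentile floor (intensity 27.8), -2.11 with no floor, -1.84 with the mean of probe sets and -2.32 without probe sets that may read several transcripts. The neutrophil list moved from -1.68 to 0.01 with no floor, the T and natural killer cell list from -1.83 to -0.52 with the 99th percentile floor, and the immunoglobulin list from -6.45 to -3.89 with the mean of probe sets. Other probe sets of the gene reversed the direction for Hsd17b13 (-5.36, and -0.37 as the mean of all), Trim34a (-1.05), Pik3ap1 (0.48), Tpmt (0.14), Tfrc (0.21), Per2 (0.08), Psmb8 (0.27), Hspa4l (-0.05), Stmn1 (0.05), Hbb-b2 (0.44) and Pdgfrb (0.06). Leaving out probe sets that may read several transcripts reversed Trim34a (-1.05), Tmsb10 (0.15), Tpmt (0.28), Stmn1 (0.05), Hbb-b2 (0.44) and Pdgfrb (0.06). The cause was not tested. Centring on the hepatocyte identity genes, and counting without the lymphoid and blood lists, were chosen after seeing the data and gave 262 and 1097, and 317 and 851. No paired analysis was possible because there was only 1 array per strain, and no array could be left out. Genes near the floor have the least signal over background, and their folds are bounds.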

Other observations

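A few gene groups outside the fixed lists were looked at after their values were seen. The Gimap genes, GTPases of lymphocytes that lie in a cluster, formed the longest run of neighbours at least 2-fold higher in FVB/NJ, with 8 genes. Gimap3 was under the detection limit in C57BL/6J at 8.17 and had an intensity of 416 in FVB/NJ, and Gimap6 had 78.9 and 623. Gimap4 was the brightest of the run in C57BL/6J, at 271 against 811 in FVB/NJ. The calcium-binding genes S100a4 (6.13 and 285) and S100a6 (22.7 and 251) lay in a run with S100a8 and S100a9. Asns, asparagine synthetase, was highest in C57BL/6J, at 60.2 against 15.7 in FVB/NJ and 9.11 to 15.7 on the other 3 arrays, and Isg20, an exonuclease induced by interferon, was highest in FVB/NJ, at 177 against 15.0. Of all compared genes, 588, or 5.08%, had exactly the same value on both arrays, such as Hnf4a at 3428.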
